A study of Drosophila melanogaster with 4 samples.

Results

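The Npc2 genes of Drosophila melanogaster encode small sterol-binding proteins with a signal peptide. They were taken by name, and all 8 of them, Npc2a to Npc2h, were found among the 15340 genes of the normalized count table. RNA had been sequenced from whole second-instar larvae, 48 h old, in 2 independent extractions of Xbp1 mutants (Xbp1ex79−/−, an imprecise excision allele derived from Xbp1CB02061) and 2 of controls (Xbp1+/+, a precise excision line from the same insertion). XBP1 is the transcription factor that IRE1 activates by splicing its mRNA when the endoplasmic reticulum is under stress, and the comparison asks how gene expression differs in larvae that lack it. Larvae of this mutant do not develop past the second instar, and how many larvae went into an extraction is not given in the sources used here.

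In mammals, NPC2 binds cholesterol in the lumen of late endosomes and lysosomes and passes it to the membrane protein NPC1, from which it leaves the organelle. Insects cannot make sterols and take them from food, and they build the moulting hormone ecdysone from them, so that sterol transport bears on growth and moulting. In flies, Npc2a is the broadly expressed member, and loss of Npc2a together with Npc2b is lethal. The proteins belong to the ML (MD-2-related lipid recognition) domain family, other members of which bind bacterial lipids, and recombinant Drosophila Npc2a, Npc2e and Npc2h bind bacterial cell wall components.

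Reads on genes numbered between 31416284 and 38601267 per library, of which CR41602, annotated as a ribosomal RNA pseudogene, took 37.2% to 43.7%. For Xbp1 itself (FBgn0021872) the normalized count was 6087 and 5953 in the 2 libraries labelled mutant, which lay between the 5521 and 7378 of the 2 labelled control. The targeted gene thus could not be used to check the labels. The mutant allele lacks a stretch around the start codon that holds the DNA-binding domain and the IRE1 splice site, but the deposited values are 1 count for the whole gene and do not resolve that stretch. The antimicrobial peptide genes CecB, CecC and Dro, which immune signalling switches on, were lower in the libraries labelled mutant, with log2 differences of -5.01, -3.43 and -3.49. Of the 12 tested genes of that list, 6 were lower in both libraries labelled mutant, 0 were higher and 6 overlapped. Among the last, Drs had 13048 and 1264 normalized counts in libraries labelled mutant against 2684.5 and 2406. Whether the labels are exchanged was not tested, and every direction given here follows them and would turn if they were. The fat body genes Fbp1 and Lsp2, which are known from late third-instar larvae, held 6.96% to 8.20% and 4.22% to 5.53% of all normalized counts. Of the 12 midgut markers, gammaTry was at 0 in all 4 libraries and 5 had a mean under 10. Mal-A1 and Amy-d were present in every library, at 14.4 to 53.3 and 17.9 to 28.8 normalized counts, and Jon65Aiv reached 2616 in control 1. What this means for the labelled stage was not tested. Since whole larvae were used, fewer cells of a type and less RNA per cell cannot be told apart.

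The 8 genes lie at 5 places in the genome, given here as positions in dm6. Npc2a (FBgn0031381) lies alone on the plus strand of 2L from 1988290 to 1988940, with 1 exon and 148 codons. All the others are on 3R. Npc2b (FBgn0038198) lies on the plus strand from 14089517 to 14092425, with 159 codons, and Npc2f (FBgn0039154) on the plus strand from 24137895 to 24140936, with 4 exons and 170 codons. A first cluster holds Npc2e (FBgn0051410) on the plus strand from 10053332 to 10054348, Npc2d (FBgn0037782) on the minus strand from 10055356 to 10056083, and Npc2c (FBgn0037783) on the plus strand from 10060252 to 10061136. These have 168, 173 and 165 codons, and the gaps between them are 1007 and 4168 bp. A second cluster holds Npc2g (FBgn0039800) from 30744605 to 30745263 and Npc2h (FBgn0039801) from 30745479 to 30746290, both on the minus strand and 215 bp apart. Npc2g has 159 codons. Npc2h has 157 codons in its unspliced transcripts Npc2h-RA and Npc2h-RC and 130 in Npc2h-RB, which has an intron of 81 bp within the coding sequence. Npc2c and Npc2e overlap annotated antisense RNAs, asRNA:CR45205 and asRNA:CR44192. Sequences of the members were not compared here, so reads that Npc2g and Npc2h might share were not assessed.

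The 8 genes spanned a wide range of expression in these larvae, from Npc2g, whose mean normalized count was exceeded by 2.86% of the tested genes, to Npc2e with no read at all. On the scale of normalized counts per kilobase of annotated exon, the order of the mean levels was Npc2g, Npc2a, Npc2h, Npc2f, Npc2b, Npc2d, Npc2c and Npc2e. Npc2g had 6460 to 14320 normalized counts per kb over the 4 libraries and Npc2a 3854 to 5068, and the ranges did not overlap. Npc2h followed with 99.3 to 949 per kb and Npc2f with 124 to 272, so that these neighbours in the order could not be told apart. Npc2b had 44.5 to 91.4 per kb, below every value of Npc2f. Npc2g and Npc2a together made up most of the family in every library. Of the summed level per kb of the 8 genes, Npc2g held 54.0% and 64.1% in libraries labelled mutant and 65.5% and 71.3% in those labelled control, and Npc2a held 42.4%, 32.3%, 29.5% and 23.0% in the same order. Npc2h held 0.831% and 1.49% against 3.67% and 4.73%, and its share was lower in both libraries labelled mutant.

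**Figure D1:**
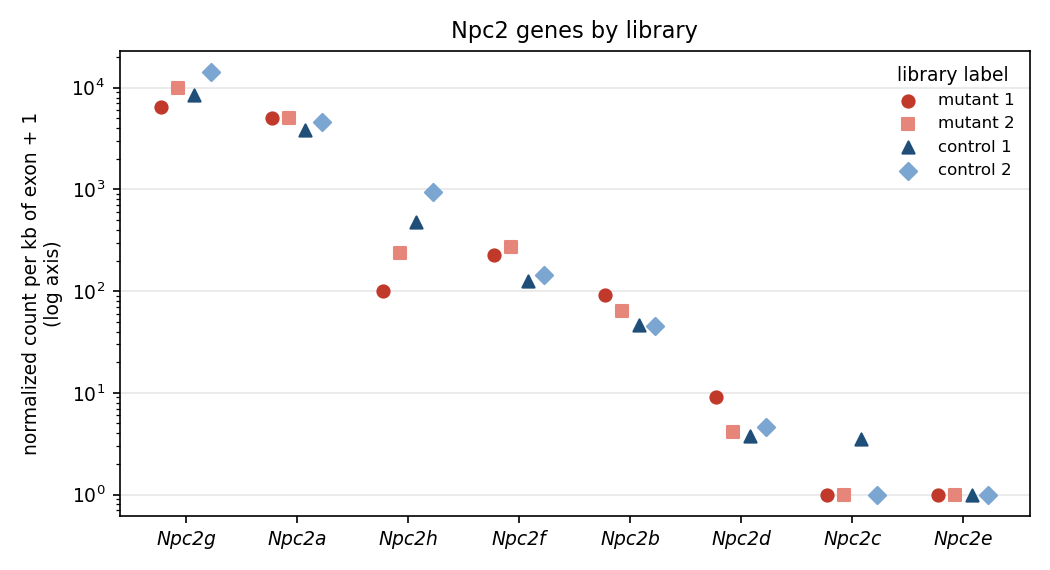
Level of each Npc2 gene in each of the 4 libraries, as the normalized count per kb of annotated exon plus 1 on a log axis, with genes ordered by their mean; points at 1 are libraries with no read. Npc2g and Npc2a lie above 3854 per kb in every library, Npc2h, Npc2f and Npc2b lie between 44.5 and 949, and Npc2d, Npc2c and Npc2e lie at or near 0.

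All 3 genes of the Npc2c to Npc2e cluster were at or near the limit of detection. Npc2d had 6 and 2 reads in libraries labelled mutant and 2 and 2 in those labelled control, which is 5.38 and 2.05 against 1.80 and 2.41 normalized counts. The exact Poisson 95% intervals of these values, which cover counting error only, overlapped, the highest being 1.97 to 11.7 in mutant 1 and the widest range among the others 0.292 to 8.71 in control 2. Npc2c had 2 reads in control 1 and none elsewhere. Npc2e, which binds bacterial cell wall components as a recombinant protein, had no read in any library. As a one-sided limit, which is lower than the upper end of a two-sided interval, a count of 0 allows up to 3 reads. This is 2.69 and 3.08 normalized counts in libraries labelled mutant and 2.70 and 3.62 in those labelled control. A difference between the groups was not detectable for these genes at this depth, and they were not tested, since their mean normalized counts were under 10.

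The other 5 genes were tested with limma on log2(normalized count + 1) across all 10500 genes whose mean normalized count reached 10, and p-values were adjusted by Benjamini-Hochberg. The main result among them was a lower count of Npc2h in the libraries labelled mutant, while Npc2f, Npc2b and Npc2a were higher there and Npc2g overlapped. By limma 0 of the 5 passed an adjusted p of 0.05 in either direction, against 0.00952% of all tested genes higher and 0% lower. At an unadjusted p under 0.05, 1 was lower (Npc2h) and 1 was higher (Npc2f), against 7.24% of all tested genes lower and 6.89% higher. By edgeR on the recovered reads 0 of the 5 passed. By DESeq2 on the recovered reads 1 passed, Npc2h, against 1.80% of the 9391 genes with an adjusted p lower and 1.90% higher. Both libraries labelled mutant lay above both labelled control for 3 of the 5 and below for 1, where 26.2% and 27.9% of all tested genes do so. The median log2 difference of the 5 was 0.26, beside -0.03 over all genes tested. With 2 libraries against 2, the smallest two-sided p of an exact permutation test is 0.333, and the p-values measure the spread between extractions.

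Npc2h had 80.6 and 190 normalized counts in libraries labelled mutant and 389 and 771 in those labelled control, from 90 and 185 against 432 and 639 reads. Both libraries labelled mutant lay below both labelled control, although the 2 libraries of each group differed from each other by about as much as mutant 2 differed from control 1. The mean was 135 ± 77.1 (SD, n = 2) against 580 ± 270 (SD, n = 2). On the log2(normalized count + 1) scale the difference was -2.14 (SE 0.54, 95% interval -3.50 to -0.77), which is 4.40-fold lower, with an adjusted p of 0.347 from limma. Only 2.93% of the tested genes had a lower value. Taken library by library, Npc2h was between 2.05-fold and 9.56-fold lower in a library labelled mutant than in a library labelled control.

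DESeq2 gave a log2 difference of -2.10 (SE 0.55) for Npc2h, with an adjusted p of 0.00848. The call depended on single libraries. In DESeq2 the adjusted p was 3.39e-04 without mutant 2 and 0.00123 without control 1, but 0.631 without mutant 1 and 0.153 without control 2, so that leaving out either the lowest or the highest library ended the call. In limma, leaving out mutant 2 gave an adjusted p of 0.0292. Over the other alternatives the adjusted p of Npc2h lay between 0.00070 and 0.528, and leaving out 1 library in turn with limma it lay between 0.0292 and 0.999. Without any 1 library, the log2 difference lay between -2.75 and -1.52 in limma and between -2.85 and -1.53 in DESeq2.

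Some antimicrobial peptide genes and tissue markers were lower in the same libraries as Npc2h, and their part in the result was not tested. The counts stand beside the 27.9% of all tested genes that were lower in both libraries labelled mutant and the 26.2% that were higher, and no list was tested as a group. Of 12 tested antimicrobial peptide genes, 6 were lower in both libraries labelled mutant and 6 overlapped, and their mean log2 level was 5.99 and 8.15 against 10.04 and 8.81. Over the 14 found, the summed normalized counts of that list were 9818 to 14120 against 12359 to 17022.5, and AttD stayed at 2.70 or less. Of 11 tested spermatocyte markers, 8 were lower and 3 overlapped, with summed counts of 920 to 2432 against 2426 to 6704 over the 13 found, and tomb was at 0. Of 6 tested hemocyte markers, 3 were lower, 1 was higher and 2 overlapped, with summed counts of 2956 to 3521 against 3397 to 4346. The summed counts of these 3 lists overlapped between the groups. In mutant 1, Drs alone held 13048 of the 14120 of the antimicrobial peptide list, so that sum mostly shows 1 gene. The spermatocyte sums overlapped narrowly, with 2432 in mutant 2 against 2426 in control 2. All 7 fat body markers overlapped, with summed counts of 5170280 to 6070630 against 4530670 to 5681650. Of the midgut markers, 3 of 7 tested were higher and 2 were lower, with summed counts of 708 to 751 against 446 to 3301. Of the Malpighian tubule markers, 3 of 4 tested were higher, with summed counts of 953 to 1098 against 582 to 737, and both tested salivary gland markers were higher. The male dosage compensation RNAs roX1 and roX2 overlapped. Control 1 stood apart in the midgut and spermatocyte lists, and what this means for Npc2h was not tested.

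Npc2g, the direct neighbour of Npc2h on the same strand, did not separate the groups. It had 4257 and 6619 normalized counts in libraries labelled mutant and 5638 and 9437 in those labelled control. Mutant 2 lay above control 1, so the groups overlapped. The log2 difference was -0.46 (SE 0.35, 95% interval -1.35 to 0.43, adjusted p = 0.506 by limma), and by DESeq2 the adjusted p was 0.588. Without 1 library it ranged from -0.83 to -0.09.

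Npc2f had 160 and 194 normalized counts in libraries labelled mutant and 88.2 and 103 in those labelled control. The groups did not overlap, and the gap between them was wider than the difference within either. The mean was 177 ± 23.6 against 95.4 ± 10.1 (SD, n = 2 each). The log2 difference was 0.88 (SE 0.29, 95% interval 0.15 to 1.61), which is 1.84-fold higher, with an unadjusted p of 0.0264 and an adjusted p of 0.347 by limma, and by DESeq2 the adjusted p was 0.225. Neither passed the threshold.

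Npc2b had 84.2 and 58.4 normalized counts in libraries labelled mutant and 42.3 and 41.0 in those labelled control. The 2 libraries labelled control were nearly equal, and both libraries labelled mutant were higher, with mutant 1 the highest. The log2 difference was 0.74 (SE 0.39, 95% interval -0.25 to 1.72, adjusted p = 0.377 by limma). The depth was low, at 34 to 94 reads per library.

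Npc2a, the broadly expressed member, had 3299 and 3296 normalized counts in libraries labelled mutant and 2509 and 3005 in those labelled control. The groups did not overlap, but the gap between mutant 2 and control 2 was smaller than the difference between the 2 libraries labelled control. The log2 difference was 0.26 (SE 0.18, 95% interval -0.20 to 0.73, adjusted p = 0.462 by limma), so a rise of up to 1.65-fold or a fall to 0.872 of the control level lay within the interval.

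**Figure D2:**
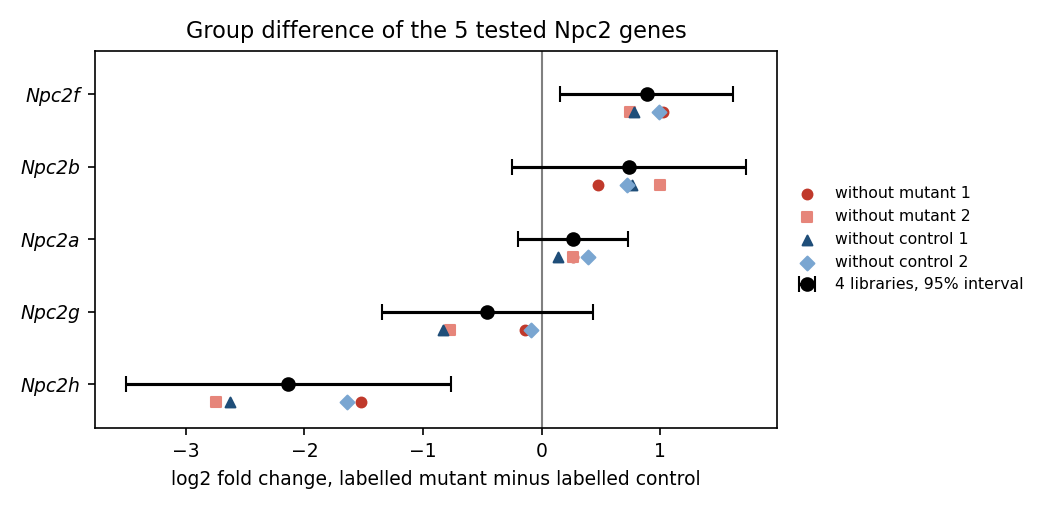
Difference of the 5 tested Npc2 genes on the log2(normalized count + 1) scale, libraries labelled mutant minus libraries labelled control; black points and bars are the limma estimates from 4 libraries with 95% intervals, and coloured points are estimates without 1 library. The estimate for Npc2h is -2.14 and lies between -2.75 and -1.52 without any 1 library, and the intervals of Npc2a, Npc2b and Npc2g cross 0.

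Ratios between 2 genes of the same library do not depend on its scaling. Over the 10 pairs of the 5 tested genes, the 4 pairs with Npc2h had the widest log2 differences between the groups, 1.69 to 3.04 in size. For each count of Npc2h per kb, Npc2g had 65.0 and 43.0 in libraries labelled mutant and 17.9 and 15.1 in those labelled control. The ratio was 3.22-fold higher in the libraries labelled mutant, with no overlap between the groups. Npc2f had 2.27 and 1.17 counts per kb for each of Npc2h against 0.259 and 0.152. By this measure Npc2f was the more abundant of the pair in both libraries labelled mutant and the less abundant in both labelled control. In mutant 2 the order depends on the exon lengths used, with 189 reads of Npc2f over 712 bp and 185 of Npc2h over 812 bp. Annotated transcripts of Npc2h are 597 to 812 bp long, and which of them were expressed was not assessed. The order in mutant 2 is thus not settled. Of the 10 pairs, 9 did not overlap between the groups, and the pair that overlapped was Npc2b and Npc2f. The pairs share the same 5 genes, 4 of which did not overlap singly, so this count is not independent of the single-gene values. The share over all pairs of tested genes was not computed, so the count is no result about the family. Npc2a against Npc2g, the abundant pair, had ratios per kb of 0.785 and 0.504 against 0.450 and 0.322. Each pair that did not overlap had an exact two-sided permutation p of 0.333, the smallest that this design allows, and 0.370 after Benjamini-Hochberg adjustment over the 10 pairs.

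**Figure D3:**
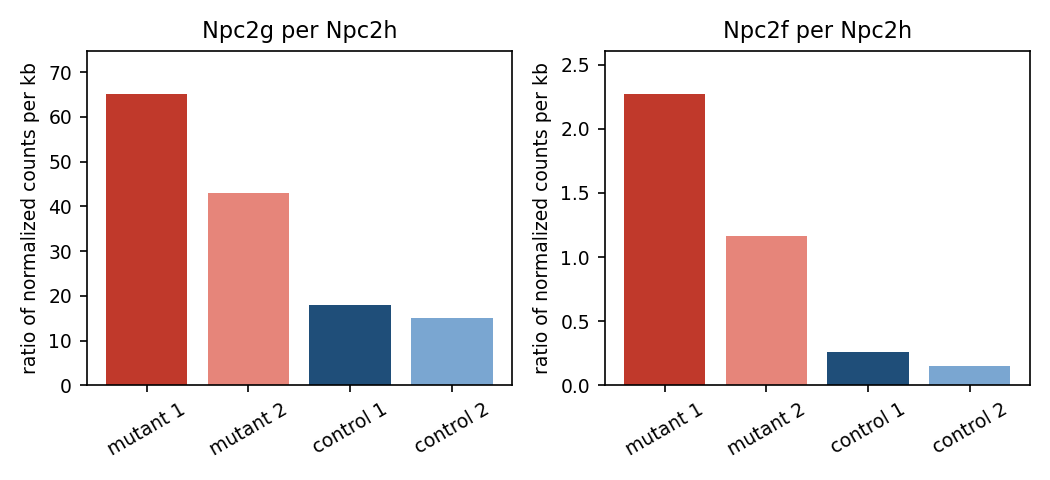
Ratio of normalized counts per kb within each library, Npc2g over Npc2h on the left and Npc2f over Npc2h on the right, 1 bar per library. The left ratio is 65.0 and 43.0 in libraries labelled mutant and 17.9 and 15.1 in those labelled control. With the annotated exon lengths used, the right ratio is above 1 only in the libraries labelled mutant, at 1.17 in mutant 2.

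For each of the 5 genes, the 2 tested genes with the most alike pattern were found by the Euclidean distance of log2(normalized count + 1), centred over the 4 libraries. Nearest to Npc2h were CG11236, at a distance of 0.363, and Dbi, which encodes an acyl-CoA-binding protein, at 0.404. CG11236 had 32.3 and 57.4 normalized counts in libraries labelled mutant and 158 and 254 in those labelled control. Dbi had 73.5 and 163 against 389 and 527. Both shared the library order of Npc2h, but they were picked for their likeness to it. Within a distance of 0.5 of Npc2h lay 3 genes. The values of Npc2a spanned 0.39 on the log2 scale and those of Npc2h 3.24. Within 0.5 of Npc2a lay 3718 genes, but at so small a span this also takes in nearly flat genes. The same distance is strict at the wide span of Npc2h. Neither count is thus a measure of how many genes share the pattern of Npc2a or Npc2h. Its nearest genes were LRP1, a lipoprotein receptor family member, at 0.0097, and vav at 0.023. Npc2b was most like pav and Cirl, at 0.097 and 0.100. Npc2f was most like CG15861 and CG6959, at 0.033 and 0.083. Npc2g was most like the cytochrome P450 gene Cyp4ac2 and the S-adenosylmethionine synthetase gene Sam-S, at 0.076 and 0.088. These distances describe 4 libraries and carry no test.

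The partners of Npc2 proteins in sterol handling showed no common direction. Npc1a, which encodes the membrane protein that receives sterol from Npc2 in the endosome, had 1933 and 1360 normalized counts in libraries labelled mutant and 1548 and 1604 in those labelled control. The groups overlapped, with a log2 difference of 0.04 (SE 0.23, adjusted p = 0.934 by limma), which turned to -0.03 when libraries were rescaled to the same total and to -0.068 after quantile normalization. Npc1b, which is needed to absorb dietary sterol in the midgut, had at most 1 read per library. Of 19 sterol handling genes found, 15 were tested. By limma and by DESeq2 0 of them passed, and at an unadjusted p under 0.05 by limma 2 were higher and 1 was lower, where 6.89% and 7.24% of all tested genes are. The median log2 difference of the 15 was 0.01.

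Members of the SREBP branch of that list, which controls lipid synthesis in flies, differed in direction from each other. SCAP, the escort of SREBP, had 1422 and 1372 normalized counts against 623 and 1014, a log2 difference of 0.81 (SE 0.28, adjusted p = 0.347 by limma). SREBP, listed as HLH106, had 2499 and 1617 against 1224 and 1573. S1P, which encodes the protease that cleaves SREBP first, had 23.3 and 32.8 against 110 and 80.8, a log2 difference of -1.73 (SE 0.41, adjusted p = 0.347 by limma and 0.0662 by DESeq2). The scavenger receptor gene pes had 1231 and 1181 against 656 and 896. CG1513 also did not overlap, at 2622 and 1944 against 1733 and 1620, nor did Hr96, a nuclear receptor of sterol and fat balance, at 323 and 306 against 339 and 334.

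In the pathway from sterol to ecdysteroid, 4 of 8 genes were tested. By limma 0 of the 4 passed, 0 had an unadjusted p under 0.05, and by DESeq2 0 passed of the 2 that it gave an adjusted p. Their median log2 difference was -0.55. Only shd, which encodes the P450 that turns ecdysone into 20-hydroxyecdysone outside the prothoracic gland, did not overlap, with 3000 and 3310 normalized counts against 1439 and 2583 (log2 difference 0.71, SE 0.31, adjusted p = 0.349 by limma). That is 1 of 4 higher, near the 26.2% of all tested genes that were higher in both libraries labelled mutant. The prothoracic gland genes phm and sad had high values only in control 1. They had 1.79 and 1.03 against 53.1 and 0 for phm, and 7.17 and 5.13 against 59.4 and 3.62 for sad.

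Since some Npc2 proteins bind bacterial products, 22 genes of microbial recognition and the Imd pathway were read from the same fit. Of the 20 tested, 0 passed in limma, with 4 higher and 2 lower at an unadjusted p under 0.05, where 6.89% and 7.24% of all tested genes are. In DESeq2 1 of 19 with an adjusted p passed, as higher. That gene, PGRP-LE, encodes an intracellular receptor for peptidoglycan and had 289 and 283 normalized counts against 98.1 and 127 (log2 difference 1.35, SE 0.27, adjusted p = 0.325 by limma and 0.0242 by DESeq2). Both libraries labelled mutant lay above both labelled control for 7 of the 20 and below for 5, near the 26.2% and 27.9% of all tested genes, and the median log2 difference was 0.04. Lower genes included GNBP3, a sensor of fungal glucans, with 4354 and 5313 against 7761 and 11331. PGRP-SD had 968 and 1832 against 2308 and 3108. These 2 genes had the library order of Npc2h, with smaller log2 differences of -0.96 (SE 0.26) and -1.01 (SE 0.36) than the -2.14 of Npc2h. Of the other lower genes, PGRP-SB2 had that order too, with a log2 difference of -0.52 (SE 0.42). PGRP-LD and PGRP-SC1b had another order and were highest in control 1. They had 13.4 and 12.3 against 35.1 and 16.9, and 8.06 and 7.18 against 77.4 and 9.65. Higher genes included PGRP-SA, a circulating peptidoglycan receptor, with 1605 and 1735 against 961 and 1216, and Rel, the NF-κB factor of the pathway, with 6763 and 5941 against 3981 and 4873.

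**Figure D4:**
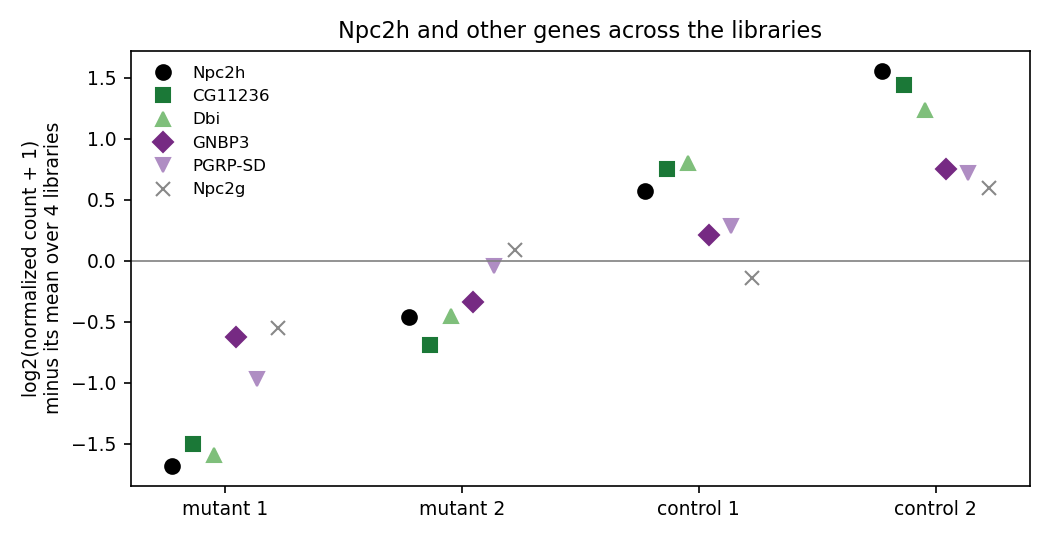
Npc2h, the 2 genes with the most alike pattern (CG11236 and Dbi), the recognition genes GNBP3 and PGRP-SD and the neighbour Npc2g in each library, as log2(normalized count + 1) minus its mean over the 4 libraries. Except for Npc2g, the genes lie below 0 in both libraries labelled mutant and above 0 in both labelled control, and Npc2g crosses, with mutant 2 above control 1. GNBP3 and PGRP-SD do not stand for their list. Of its 20 tested genes, 7 were higher and 5 were lower in both libraries labelled mutant.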

How the data were processed

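RNA of 4 libraries was read as 50 nt pairs after ribosomal RNA removal with a stranded kit. The authors aligned reads to dm6 with TopHat2 (2.1.1), counted them per gene with HTSeq (0.6.1) and deposited a signal of normalized counts, each count divided by the DESeq2 size factor of its library. The annotation and the strand setting of the counting are not given in the sources used here.

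In the 15100 to 15185 genes checked per library, all values were whole multiples of 1 step per library (100% within 0.01), so reads were recovered. The most abundant genes were rounded to whole reads without this check. Names were matched to the Ensembl annotation BDGP6.54 in dm6 coordinates: 11817 of 15340 by symbol, 3239 by synonym. Groups were compared with limma (3.58.1 in R 4.3.3; lmFit, eBayes with trend) on log2(normalized count + 1), which understates changes of low genes, for the 10500 genes whose mean reached 10, and p-values were adjusted by Benjamini-Hochberg, with a threshold of 0.05. Alternatives were count tests on those reads by edgeR (4.0.16) and by DESeq2 (1.42.0), other pseudocounts, filters and scalings, a replicate block and leaving out each library. DESeq2 without each library, DESeq2 with the block and a crossed block were added after seeing the data. The tests were checked on simulated data.

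The members and gene lists were chosen with earlier results of these data known. Named were all members, Xbp1, annotated neighbours and the 2 nearest patterns. List genes were named from those that passed, did not overlap or whose role touches Npc2. Not all list genes that did not overlap were named. Fbp1, Lsp2 and other markers come from the marker lists. CR41602 was named after its values were seen. Limits and intervals from reads cover counting error only, as PCR copies were not marked.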

Additional observations from a re-analysis of the deposited data

How the results depend on the processing

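All 5 tested Npc2 genes kept their direction in 16 of 16 alternatives, but not all of these could change it. The limma fits with another filter, without trend or with a block give the log2 difference of the main fit by design. Where the groups do not overlap, leaving out 1 library in limma cannot turn the direction either. The number of them past the threshold was 0, and it was 1 (Npc2h, lower) with DESeq2, with DESeq2 and the replicate block, and with the crossed block. It was 0 to 1 without any 1 library, in limma (1 without mutant replicate 2) and in DESeq2 (1 without mutant replicate 2 and 1 without control replicate 1). Deviations of same-numbered libraries from their group means correlated at -0.443 across genes. With 2 libraries a group this is 1 correlation, which cannot show how the extractions were handled. Whether same-numbered libraries form pairs is not given in the sources used here. With the replicate block, limma called 0 of the Npc2 genes and 0 of all genes (861 at an unadjusted p under 0.05). The crossed block, added after seeing the data, called 1800 genes (1410 lower, 390 higher), with 1 sterol handling gene and 1 microbial recognition gene. Over all genes limma called 1, against 3 with no filter, 14 after rescaling to the same total (4 lower and 10 higher), 9 after quantile normalization, 0 by eBayes without trend (1294 unadjusted), 347 by DESeq2 (169 lower and 178 higher), 1 by edgeR, and 0 to 170 without any 1 library (170 without mutant replicate 2). DESeq2 also called 1 microbial recognition gene. The median of all genes was -0.03, and -0.10 and 0.07 under the first and second of these scalings. Npc1a turned to -0.03 and -0.068 under them and ranged from -0.21 to 0.29 without any 1 library, and Xbp1 ranged from -0.29 to 0.12. The cause was not tested. Npc2c, Npc2d and Npc2e, with 0 to 6 reads per library, were too shallow to compare.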

Other observations

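The genes beside the Npc2 loci mostly overlapped between the groups. Of all tested genes, 26.2% were higher and 27.9% were lower in both libraries labelled mutant. These few neighbours were not tested against that share. Beside Npc2g, on its other side from Npc2h at 130 bp, CG15543 had 26.0 and 68.7 normalized counts in libraries labelled mutant and 170 and 77.2 in those labelled control. It was lower in both libraries labelled mutant, with a log2 difference of -1.42 (adjusted p = 0.350 by limma), so that the genes on both sides of Npc2g did not overlap between the groups while Npc2g did. Beyond Npc2h, lncRNA:CR43238 had at most 3 reads per library. CCHa1, a peptide hormone gene that ends 78 bp from Npc2b, had 36.7 and 14.4 against 9.90 and 15.7 and overlapped. Its other neighbour, foxo, had 4840 and 4020 against 3155 and 4057 and overlapped. Beside Npc2f, Sec10, a subunit of the exocyst, was higher in both libraries labelled mutant at 280 and 290 against 208 and 236, and Kal1 overlapped. Got2 and lncRNA:CR42874 beside Npc2a and Fancl beside Npc2e also overlapped. None of the tested neighbours named here passed the threshold in limma.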
